A study of Rattus norvegicus with 8 samples.

Results

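The transcripts of skeletal muscle were followed by fibre type in rat L5 dorsal root ganglia (DRG) after injury of their own spinal nerve. A list of 43 muscle genes was used, divided into 9 genes typical of fast fibres, 5 typical of slow fibres and 29 here called common. All 9 fast and all 5 slow genes had a probe set that carried their symbol alone, as did 25 of the common genes, which gave 39 genes out of 14497 named on the array. Neb, Casq1, Myom2 and Tcap were not analysed here. Ganglia came from adult male Wistar rats, 14 days after the L5 spinal nerve had been ligated and cut. For 4 samples an osmotic pump had delivered MS-275, which inhibits class I histone deacetylases (HDACI group), through an intrathecal catheter at 30 nmol per day, and for the other 4 samples vehicle, dimethyl sulfoxide in saline, by the same route. Both groups therefore carried the nerve injury, the laminectomy and the pump, and each of the 8 samples was hybridized to 1 Affymetrix array. The comparison asks whether the inhibitor altered expression in the injured ganglion, and for these genes whether fast and slow fibre transcripts moved together from array to array.

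Skeletal muscle contracts when myosin heads pull on actin filaments, and calcium released from the sarcoplasmic reticulum permits this by binding troponin. Fast and slow fibres use different genes for the same parts, so that myosin, troponin and the calcium pump each exist in a fast and a slow form. Fast fibres rely more on glycogen and glycolysis, while slow fibres hold more myoglobin and mitochondria. A DRG contains no muscle fibres of its own but lies close to the muscles along the spine. The ganglion markers were present on every array. The mean log2 value of 14 measured genes of DRG neurons lay between 11.07 and 11.16 in HDACI arrays and between 11.03 and 11.46 in vehicle arrays. That of 5 genes of satellite glia lay between 11.19 and 11.28 in HDACI arrays and between 11.18 and 11.38 in vehicle arrays. In whole tissue of this kind, fewer cells of a type and less RNA per cell cannot be told apart.

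The fast myosin heavy chain genes stand side by side on rat chromosome 10, and the slow gene Myh7 lies on chromosome 15. Their promoters are shown because these genes do the same work in fast and slow fibres and part in the values below. Each line holds the 100 bases before the annotated start of the gene (RefSeq, GRCr8), written 5′ to 3′ on the strand of the gene, with TATAAA and CAGCTG in capitals. The stretches are chr10:52384812-52384911 (plus strand) for Myh1, chr10:52355639-52355738 (plus strand) for Myh2, chr10:52422048-52422147 (plus strand) for Myh4 and chr15:32438195-32438294 (minus strand) for Myh7.
Myh1: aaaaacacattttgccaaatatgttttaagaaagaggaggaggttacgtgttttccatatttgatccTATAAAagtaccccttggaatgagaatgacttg
Myh2: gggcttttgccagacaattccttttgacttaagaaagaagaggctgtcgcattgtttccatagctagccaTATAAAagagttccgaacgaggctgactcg
Myh4: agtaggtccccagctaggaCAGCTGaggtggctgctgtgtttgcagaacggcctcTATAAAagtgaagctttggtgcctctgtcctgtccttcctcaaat
Myh7: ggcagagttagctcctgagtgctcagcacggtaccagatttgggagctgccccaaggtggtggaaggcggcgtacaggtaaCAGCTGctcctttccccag
All 3 fast genes held TATAAA, with its first base 33, 30 and 45 bases before the start in Myh1, Myh2 and Myh4, whereas the Myh7 stretch did not contain these letters. CAGCTG, an E-box of the kind bound by MyoD and myogenin, stood in the stretches of Myh4 and Myh7. Of the 39 genes, 33 had a RefSeq promoter. Searched on both strands over the 250 bases before the start, TATAAA was present in 10 of these 33 genes and in 12.9% of all 33469 promoters. Among the 10 were the fast genes Myh1, Myh2, Myh4 and Tnni2 and the slow gene Tnnt1. CAGCTG was present in 11 of 33 genes and in 12.0% of all promoters. The MEF2 site, which can include the letters TATAAA, was present in 7 of 33 genes and in 2.96% of all promoters. These matches are descriptions of sequence, and binding was not measured.

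Fast fibre genes varied widely among the vehicle arrays and little among the HDACI arrays. All values are log2 values after robust multi-array averaging (RMA), listed for replicates 1 to 4. The heavy chain of the fastest fibres, Myh4, measured 7.45, 7.59, 7.43 and 7.15 in HDACI arrays, against 11.97, 11.05, 6.98 and 10.44 in vehicle arrays. Vehicle replicates 1, 2 and 4 lay above every HDACI array, while vehicle replicate 3 was the lowest of all 8 arrays. Myh1, the heavy chain of an intermediate fast fibre, measured 6.85, 7.27, 7.42 and 6.48 in HDACI arrays, against 11.46, 10.30, 6.64 and 8.32 in vehicle arrays. Myh2, the heavy chain of the slowest fast fibre, measured 6.47, 6.37, 6.500 and 6.18 in HDACI arrays, against 9.29, 8.21, 6.22 and 7.24 in vehicle arrays. For both genes vehicle replicate 3 fell inside the range of the HDACI arrays. The differences, HDACI minus vehicle, were -2.70 ± 0.90 for Myh4, -2.18 ± 0.89 for Myh1 and -1.36 ± 0.55 for Myh2 (log2, SE). Myh1, Myh2 and Myh4 are close copies of each other, so their probe sets may share signal, which was not tested.

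The fast troponins followed the same order of arrays. Troponin binds calcium through its C subunit, blocks actin through its I subunit and is anchored to tropomyosin by its T subunit. Tnnt3, the fast T subunit, measured 8.82, 8.94, 8.94 and 8.84 in HDACI arrays, against 12.38, 11.72, 8.59 and 10.20 in vehicle arrays. Tnni2, the fast I subunit, measured 7.32, 7.39, 7.25 and 7.16 in HDACI arrays, against 10.49, 9.57, 7.14 and 8.68 in vehicle arrays. Tnnc2, the fast C subunit, measured 8.14, 7.89, 8.04 and 7.84 in HDACI arrays, against 11.25, 10.18, 7.95 and 9.12 in vehicle arrays. For all 3 genes vehicle replicate 1 was highest, then 2, then 4, and vehicle replicate 3 lay beside or below the HDACI arrays. The differences were -1.83 ± 0.69, -1.69 ± 0.59 and -1.65 ± 0.58 (log2, SE) for Tnnt3, Tnni2 and Tnnc2.

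The remaining fast genes were a calcium pump, a structural protein and a calcium buffer. Atp2a1, the pump that returns calcium to the sarcoplasmic reticulum of fast fibres, measured 7.95, 8.15, 8.19 and 7.51 in HDACI arrays, against 11.75, 10.91, 7.70 and 10.05 in vehicle arrays. Actn3, the alpha-actinin of the fast Z disc, measured 7.61, 7.73, 7.73 and 7.28 in HDACI arrays, against 11.40, 9.78, 7.49 and 9.33 in vehicle arrays. Both placed the arrays in the order described for the troponins, with differences of -2.15 ± 0.73 and -1.91 ± 0.67 (log2, SE). Pvalb, a calcium buffer that speeds relaxation of fast fibres and also marks proprioceptive sensory neurons, measured 8.48, 8.50, 8.50 and 7.97 in HDACI arrays, against 11.31, 10.38, 8.18 and 9.32 in vehicle arrays. Its difference was -1.43 ± 0.57, and it had the same order of arrays as the other fast genes. The mean log2 value of 12 measured genes of proprioceptive neurons, Pvalb not among them, lay between 9.29 and 9.49 in HDACI arrays and between 9.32 and 9.53 in vehicle arrays. Of these 12 genes 6 were lower in HDACI, against 46.7% of all probe sets. Of the 6, 1 was lower at an unadjusted p under 0.05 by limma, the cadherin Cdh13 (-0.47 ± 0.16). At that threshold 1.93% of all probe sets were lower. In 10 of the 12 vehicle replicate 2 was above vehicle replicate 1, the reverse of Pvalb. The same held for all 14 measured DRG neuron genes, so it was not particular to proprioceptive neurons. Vehicle replicate 1 was above vehicle replicate 2 for 48.7% of all probe sets. The source of the Pvalb signal was not tested.

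**Figure D1:**
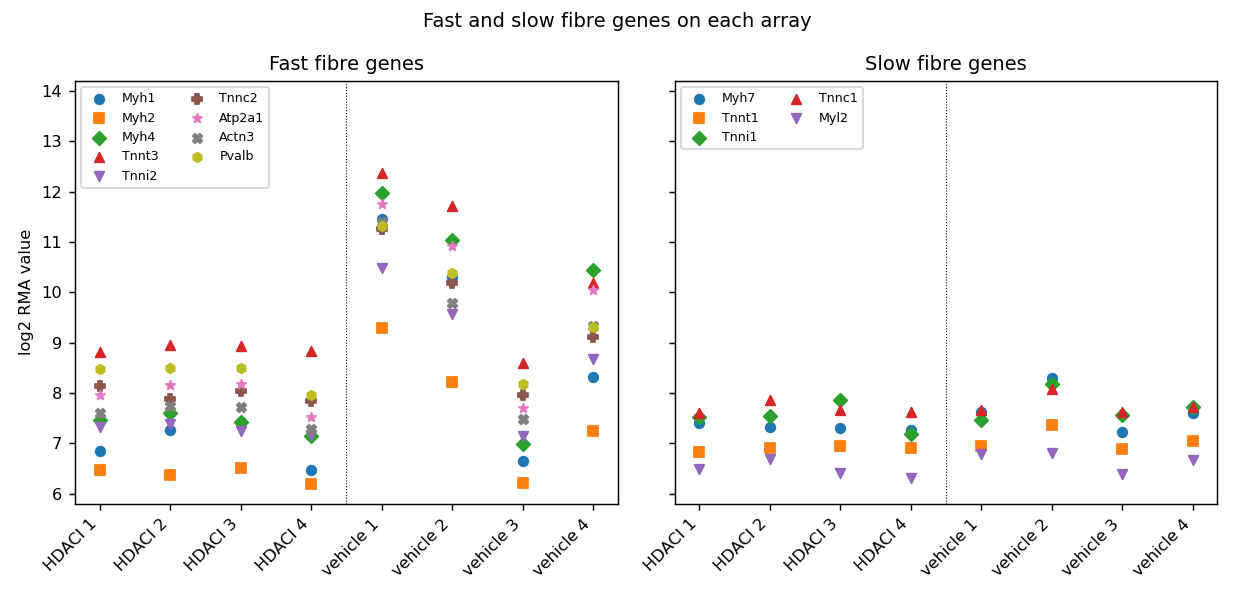
Log2 RMA values (y axis) of the 9 fast fibre genes (left) and the 5 slow fibre genes (right) on each of the 8 arrays, HDACI replicates 1 to 4 and then vehicle replicates 1 to 4, with 1 marker per gene. Fast genes stand high in vehicle replicates 1, 2 and 4 only, while slow genes differ little between arrays and are highest in vehicle replicate 2.

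Slow fibre genes differed much less, and a different array was highest. Myh7, the heavy chain of slow fibres and of the heart ventricle, measured 7.40, 7.33, 7.30 and 7.27 in HDACI arrays, against 7.62, 8.30, 7.23 and 7.59 in vehicle arrays. Tnni1, the slow I subunit of troponin, measured 7.52, 7.54, 7.85 and 7.18 in HDACI arrays, against 7.47, 8.19, 7.55 and 7.72 in vehicle arrays. Tnnt1, the slow T subunit, measured 6.83, 6.90, 6.95 and 6.91 in HDACI arrays, against 6.96, 7.36, 6.88 and 7.04 in vehicle arrays. In all 3 genes vehicle replicate 2 stood above the other arrays, and vehicle replicate 1, which was highest for every fast gene, lay 0.68, 0.72 and 0.41 below it for Myh7, Tnni1 and Tnnt1 (log2). Tnnc1, the C subunit of slow and cardiac muscle, measured 7.61, 7.87, 7.66 and 7.62 in HDACI arrays, against 7.67, 8.09, 7.63 and 7.73 in vehicle arrays. Myl2, the regulatory light chain of slow and ventricular myosin, measured 6.48, 6.69, 6.41 and 6.31 in HDACI arrays, against 6.79, 6.81, 6.39 and 6.66 in vehicle arrays. For Tnnc1 only vehicle replicate 2 exceeded all HDACI arrays, and for Myl2 vehicle replicates 1 and 2 did, by nearly equal amounts. The differences between groups were -0.36 ± 0.19 for Myh7, -0.21 ± 0.18 for Tnni1, -0.16 ± 0.10 for Tnnt1, -0.09 ± 0.11 for Tnnc1 and -0.19 ± 0.11 for Myl2 (log2, SE), and the 95% confidence interval of each included 0.

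Expressed per array, the fast and slow classes parted. Each value was set against the mean of the 4 HDACI arrays for the same gene, and the median was taken over the genes of a class. The fast genes lay between -0.25 and 0.13 in the HDACI arrays, against 3.49, 2.29, -0.19 and 1.32 in vehicle replicates 1 to 4 (log2). These medians correspond to 11.2-fold, 4.89-fold and 2.50-fold the HDACI mean in vehicle replicates 1, 2 and 4. The slow genes lay between -0.07 and 0.01 in the HDACI arrays, against 0.06, 0.46, -0.06 and 0.19 in vehicle replicates 1 to 4. The common genes lay between -0.18 and 0.12 in the HDACI arrays, against 3.04, 2.06, 0.01 and 1.10 in vehicle replicates 1 to 4. Fast minus slow was therefore 3.43 for vehicle replicate 1, 1.83 for replicate 2, -0.12 for replicate 3 and 1.13 for replicate 4. This is a description of chosen genes and carries no test. RMA compresses differences of dim probe sets. Averaged over all 8 arrays, the rank of the slow genes among all probe sets ran from percentile 24.3 to 43.3, against 32.6 to 73.0 for the fast genes. That rank includes the high vehicle values of the fast genes. In HDACI arrays alone the gene means overlapped, from 6.47 to 7.69 for slow genes and from 6.38 to 8.89 for fast genes (log2). The part of RMA compression in the small differences of the slow genes was not tested.

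**Figure D2:**
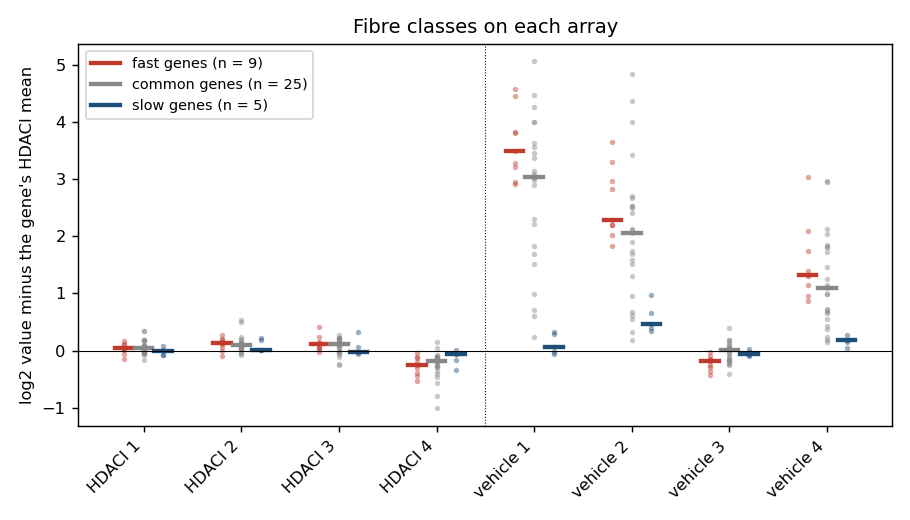
Each point is 1 gene on 1 array, plotted as its log2 value minus its mean over the HDACI arrays (y axis), and bars give the class medians for fast (red), common (grey) and slow (dark blue) genes. The fast median is 3.49 in vehicle replicate 1 and 2.29 in replicate 2, whereas the slow median is 0.06 and 0.46.

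Among the common genes, those of the filaments and the Z disc mostly kept the fast pattern. Myl1, an essential light chain of fast myosin, measured 8.90, 9.10, 8.68 and 7.54 in HDACI arrays, against 13.03, 12.55, 8.34 and 11.52 in vehicle arrays. Mybpc1, the myosin-binding protein C named for slow fibres, measured 6.84, 7.07, 7.01 and 6.63 in HDACI arrays, against 9.92, 8.94, 6.93 and 7.87 in vehicle arrays. Both lay lower in HDACI, by -2.80 ± 0.91 and -1.53 ± 0.54 (log2, SE), and Myl11, the regulatory light chain of fast myosin, by -2.04 ± 0.80. Acta1, the actin of skeletal muscle, measured 9.78, 9.83, 9.76 and 9.03 in HDACI arrays, against 13.24, 12.27, 9.35 and 11.72 in vehicle arrays. Tmod4, which caps the pointed ends of actin filaments, measured 7.26, 7.28, 6.83 and 6.92 in HDACI arrays, against 10.13, 9.19, 6.89 and 8.17 in vehicle arrays. In both genes vehicle replicate 3 was within the HDACI range and the other vehicle arrays above it. Ttn, the giant spring protein of the sarcomere, measured 7.15, 7.24, 7.21 and 6.82 in HDACI arrays, against 11.11, 10.53, 6.92 and 9.14 in vehicle arrays. Myom1, which links myosin at the M band, measured 5.99, 6.14, 6.03 and 5.93 in HDACI arrays, against 7.53, 6.97, 5.97 and 6.69 in vehicle arrays. Titin thus spanned 4.29 over the arrays and myomesin 1.60 (log2), in the same order of vehicle replicates.

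Z disc genes all lay lower in HDACI, by unequal amounts. Myot, which crosslinks actin at the Z disc, measured 6.09, 6.11, 6.06 and 5.69 in HDACI arrays, against 9.35, 8.51, 5.85 and 7.45 in vehicle arrays. Ldb3, a scaffold that binds alpha-actinin, measured 8.32, 8.35, 8.44 and 8.18 in HDACI arrays, against 9.30, 8.64, 8.35 and 8.70 in vehicle arrays. Ldb3 had its second highest value in vehicle replicate 4 and not in replicate 2. The calcineurin-binding protein Myoz1 differed by -1.41 ± 0.52, Actn2, the alpha-actinin found in all striated fibres, by -1.25 ± 0.47, the actin-binding Xirp2 by -1.21 ± 0.34 and the intermediate filament desmin (Des) by -0.89 ± 0.40 (log2, SE). Desmin is also made by smooth muscle. Over 11 measured smooth muscle genes the mean log2 value lay between 9.23 and 9.42 in HDACI arrays and between 9.21 and 9.53 in vehicle arrays. Of these 11 genes 2 were lower in HDACI, against 46.7% of all probe sets. Of the 2, 1 was lower at an unadjusted p under 0.05 by limma, against 1.93% of all probe sets. It was the tropomyosin Tpm2, which skeletal muscle also makes (-1.03 ± 0.44).

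Among the common genes, several of excitation and calcium release showed small differences. Trdn, which anchors calsequestrin to the calcium release channel, measured 6.22, 6.49, 6.59 and 6.22 in HDACI arrays, against 9.52, 9.09, 6.39 and 7.09 in vehicle arrays. Jph1, which holds the sarcoplasmic reticulum to the surface membrane, measured 7.96, 7.96, 7.87 and 7.82 in HDACI arrays, against 8.14, 8.09, 8.01 and 8.06 in vehicle arrays. The groups did not overlap for Jph1, although its range over all 8 arrays was only 0.32 (log2), and it differed by -0.17 ± 0.05. The release channel Ryr1 differed by -1.10 ± 0.38, the muscle sodium channel Scn4a by -0.47 ± 0.11 and the reticulum cation channel Tmem38a by -0.42 ± 0.12 (log2, SE).

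The widest difference was found among the genes of energy metabolism. Car3, a carbonic anhydrase abundant in slow fibres and in fat, measured 7.70, 7.85, 7.33 and 6.57 in HDACI arrays, against 12.42, 11.72, 7.21 and 10.31 in vehicle arrays. Its difference of -3.05 ± 0.98 was the largest of the 39 genes. The mean log2 value of 14 measured adipocyte genes lay between 7.94 and 7.997 in HDACI arrays and between 7.90 and 7.99 in vehicle arrays. By limma 0 of the 14 had an unadjusted or adjusted p under 0.05. At the unadjusted threshold only 1.93% of all probe sets were lower and 1.61% higher. Ampd1, the AMP deaminase of muscle, measured 6.69, 6.86, 6.98 and 6.55 in HDACI arrays, against 9.67, 9.25, 6.80 and 7.89 in vehicle arrays. The muscle creatine kinase Ckm differed by -1.90 ± 0.67, the muscle enolase Eno3 by -1.67 ± 0.61 and the glycogen phosphorylase Pygm by -1.42 ± 0.49. Myoglobin (Mb), the oxygen store of oxidative fibres, differed by -2.68 ± 0.89 (log2, SE).

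Across the 39 genes the group difference had one direction and a wide error. All 39 were lower in HDACI, against 46.7% of all 28826 probe sets, with a median difference of -1.52 (log2), against 0.0055 over all probe sets. The median was -1.83 for the fast genes, -0.19 for the slow genes and -1.52 for the common genes. Without vehicle replicate 2 the median of the slow genes was -0.059. Markers of other cells also lay apart between the groups: all 8 measured fibroblast genes were higher in HDACI, with a median difference of 0.17, and 12 of 14 DRG neuron genes were lower, with a median of -0.069 (log2). None of these 22 genes had an unadjusted or adjusted p under 0.05 by limma, and their part in the result was not tested. By limma none passed an adjusted p of 0.05 (adjusted p = 0.9998 for each), nor did any probe set on the array (0.00% called). At an unadjusted p under 0.05 were 32 of the 39 genes, all of them lower, against 1.93% of all probe sets lower and 1.61% higher at that threshold. These 32 comprised all 9 fast genes, none of the 5 slow genes and 23 of the 25 common genes, the exceptions among the last being Des and Mybpc2. At an unadjusted p under 0.01 were 4 genes, Scn4a, Xirp2, Tmem38a and Jph1, against 0.354% of all probe sets. Whether fast and slow genes differ in their response was not tested, since the genes were chosen with results of these arrays known. Without vehicle replicate 2 the count at 0.05 was 19, and without vehicle replicate 1 the median difference was -1.01. Without vehicle replicate 3 the count at 0.01 was 33, while without any 1 of the other arrays it was between 1 and 3.

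**Figure D3:**
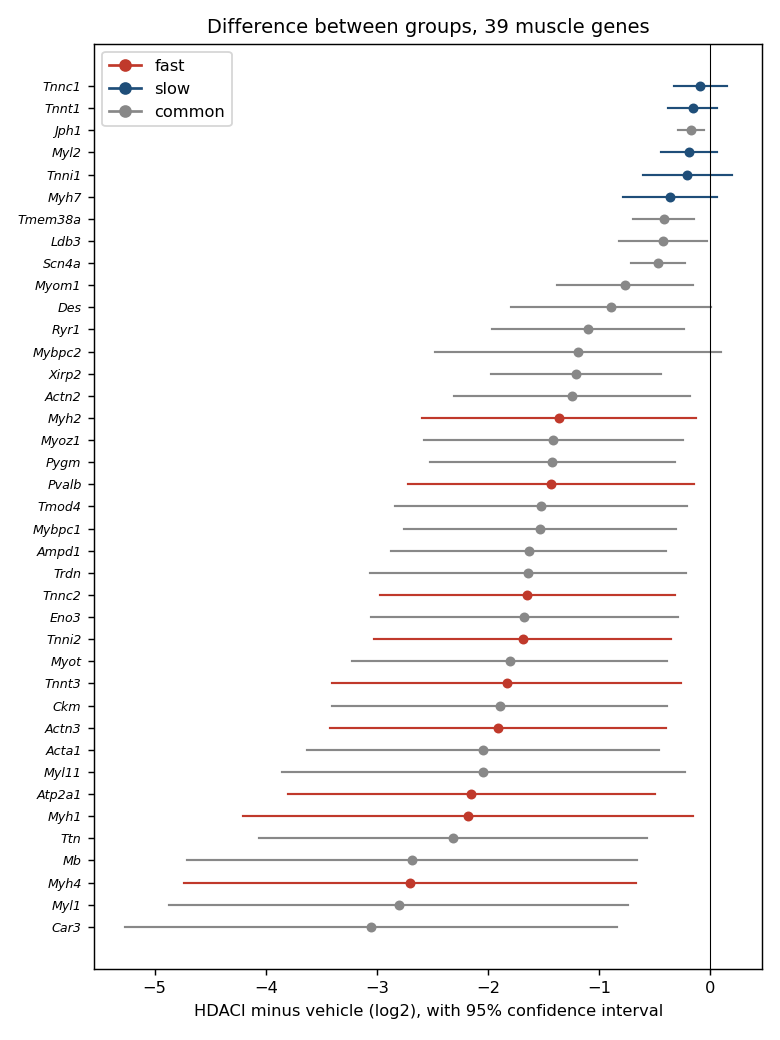
Difference HDACI minus vehicle (log2, x axis) of the 39 muscle genes with its 95% confidence interval from limma (n = 4 arrays each), for fast (red), slow (dark blue) and common (grey) genes. The differences run from -3.05 for Car3 to -0.09 for Tnnc1, and the 5 slow genes are among the smallest.

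The error came from the vehicle group. The SD was larger in vehicle than in HDACI for 38 of the 39 genes, against 53.7% of all probe sets. Its median over the 39 genes was 0.18 in HDACI and 1.35 in vehicle (log2). At least 3 vehicle arrays lay above every HDACI array for 36 genes, against 7.46% of all probe sets, and in each of the 36 these included vehicle replicates 1, 2 and 4, against 2.31% of all probe sets. The range over the 8 arrays was at least 1 (log2) for 33 genes, against 2.84% of all probe sets, and at least 2 for 28 genes, against 0.375%. None of the slow genes was among the 28. All 4 vehicle arrays lay above every HDACI array for Pygm, Xirp2, Scn4a, Jph1 and Tmem38a, which makes 5 of 39 genes against 1.09% of all probe sets. Vehicle replicate 3 lay inside the HDACI range for 29 genes, below it for 5 and above it for 5. Vehicle replicates ran in the order 1, 2, 4, 3 from high to low for 27 genes, against 4.80% of all probe sets, and these 27 included all 9 fast genes and none of the slow genes.

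The HDACI arrays were not level either. HDACI replicate 4 was the lowest of the HDACI arrays for 33 of the 39 genes, against 36.5% of all probe sets. It was the lowest of all 8 arrays for 29 genes, a count whose share over all probe sets was not taken. It lay below the mean of the other 3 HDACI arrays by a median of -0.34 for the fast genes, -0.24 for the common genes and -0.09 for the slow genes (log2). The gap was -1.35 for Myl1, -1.05 for Car3 and -0.76 for Acta1. The same array was also low in 7 measured genes of myelinating Schwann cells, by a median of -0.43 against the mean of the other 3 HDACI arrays. By the same measure it was high in 8 measured fibroblast genes, with a median of 0.38. Their part in the result was not tested.

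Vehicle replicates 1 and 2, both rich in muscle transcripts, differed in which ones. Of the 39 genes 30 were higher in vehicle replicate 1, against 48.7% of all probe sets, and 9 were higher in vehicle replicate 2. The same 30 had their highest value of all arrays in vehicle replicate 1, against 14.0% of all probe sets, and the 9 in vehicle replicate 2, against 10.5%. The 9 were all 5 slow genes and Mb, Scn4a, Ryr1 and Des. Myoglobin measured 8.03, 7.81, 8.12 and 7.43 in HDACI arrays, against 11.85, 12.68, 7.93 and 9.66 in vehicle arrays. It lay 0.83 higher in vehicle replicate 2 than in replicate 1, the widest gap in that direction. Mybpc2, the myosin-binding protein C of fast fibres, measured 7.48, 7.35, 7.60 and 7.11 in HDACI arrays, against 10.47, 7.998, 7.29 and 8.53 in vehicle arrays. It was 5.55-fold higher in vehicle replicate 1 than in replicate 2, the widest gap in the other direction, and it was given with all its values, like myoglobin, after these had been seen. Next to it stood Eno3 (3.42-fold), Myl11 (3.29-fold), Pygm (3.19-fold) and Actn3 (3.07-fold), which are genes of fast myosin, the fast Z disc and carbohydrate breakdown. Genes with a gap of less than 0.20 in either direction were Myl2, Des, Ryr1, Scn4a, Jph1, Tmem38a and Actn2. Genes of other cells differed between these arrays too. All 14 measured DRG neuron genes were higher in vehicle replicate 2, with a median of -0.20 for replicate 1 minus replicate 2 (log2), and all 8 fibroblast genes were higher in vehicle replicate 1, with a median of 0.55. Their part in the contrast was not tested, and each array is 1 ganglion sample, so that this contrast between 2 arrays has no replicate.

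**Figure D4:**
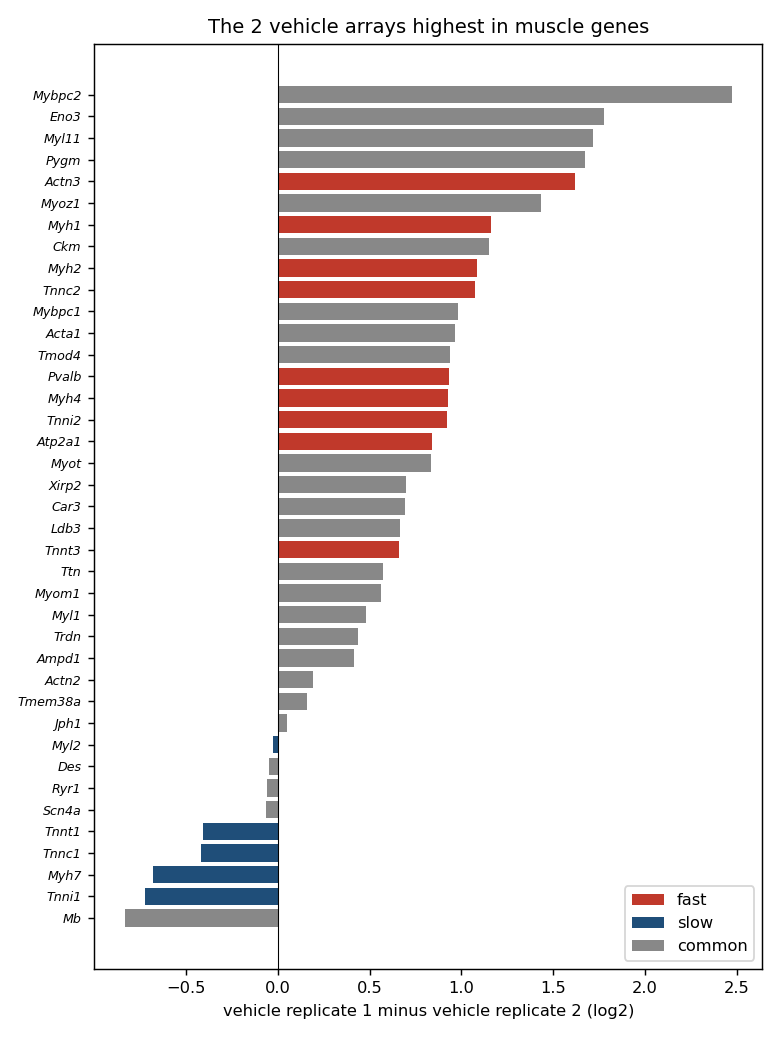
Bars give the log2 value in vehicle replicate 1 minus that in vehicle replicate 2 (x axis) for each of the 39 genes, with fast genes in red, slow genes in dark blue and common genes in grey. All fast genes lie to the right of 0 and all slow genes to the left, and Mb is lowest at -0.83 and Mybpc2 highest at 2.47.

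Other muscle genes, written down as further lists with the earlier results known, were read beside these. Of 50 further skeletal muscle genes 41 were measured and 40 of them were lower in HDACI, against 46.7% of all probe sets, with a median difference of -0.30 (log2), and 18 were lower at an unadjusted p under 0.05, against 1.93% of all probe sets. Those with the smallest p were the Popeye family membrane protein Bves (-0.38 ± 0.09), the fatty acid-binding protein Fabp3 (-0.34 ± 0.08), the phosphorylase kinase subunit Phka1 (-0.22 ± 0.06) and the ADP-ribosyltransferase Art1 (-0.34 ± 0.10, SE). Vehicle replicate 1 was above vehicle replicate 2 for 24 of the 41, against 48.7% of all probe sets. Of 7 further genes typical of slow fibres 5 were lower in HDACI, with a median difference of -0.10, and none passed an unadjusted p of 0.05 or the adjusted threshold by limma. Among them Myl3, the essential light chain of slow and ventricular myosin, measured 7.29, 7.28, 7.35 and 7.25 in HDACI arrays, against 8.20, 8.30, 7.14 and 7.54 in vehicle arrays. Myoz2, the myozenin of slow and cardiac muscle, measured 6.63, 6.58, 6.72 and 6.62 in HDACI arrays, against 7.04, 7.40, 6.57 and 6.59 in vehicle arrays. Vehicle replicate 2 was above vehicle replicate 1 for 6 of the 7, the exception being Casq2 (8.34 in vehicle replicate 1 and 7.75 in replicate 2).

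Genes listed for developing and regenerating muscle were mostly highest in vehicle replicate 2. Of 16 such genes 13 were measured, 11 of them higher in vehicle replicate 2 than in replicate 1, and 9 had their highest value of all 8 arrays there, against 10.5% of all probe sets. The same count was 7 of 14 for the DRG neuron genes, whose part in this was not tested. The median of the 13 muscle genes over the HDACI mean was 0.05, 0.55, 0.03 and 0.23 in vehicle replicates 1 to 4 (log2). Myf6, a myogenic transcription factor, measured 6.58, 6.35, 6.66 and 6.44 in HDACI arrays, against 7.54, 8.77, 6.64 and 6.83 in vehicle arrays. Chrna1, the alpha subunit of the muscle acetylcholine receptor, measured 9.08, 8.99, 9.17 and 9.02 in HDACI arrays, against 9.28, 10.71, 9.52 and 9.19 in vehicle arrays. For Chrna1 vehicle replicate 2 was far above all others, and for Myf6 vehicle replicate 1 came next. Myog, the transcription factor myogenin, was picked once its values were known and measured 6.56, 6.85, 6.79 and 6.52 in HDACI arrays, against 6.62, 7.83, 6.74 and 6.93 in vehicle arrays. Of the 13 genes 12 were lower in HDACI, against 46.7% of all probe sets, and 2 were lower at an unadjusted p under 0.05, against 1.93%. These were Myf6 (-0.94 ± 0.40) and Chrne, the adult epsilon subunit of the acetylcholine receptor (-0.26 ± 0.09, SE). Chrne, unlike Chrna1, was higher in vehicle replicate 1 (7.93) than in vehicle replicate 2 (7.58).

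Heart muscle genes did not follow the fast pattern. Of 12 genes 11 were measured, 5 lower and 6 higher in HDACI, with a median difference of 0.07 (log2). Of all probe sets 46.7% were lower. The ryanodine receptor Ryr2, which neurons also make, was lower at an unadjusted p under 0.05 by limma (-0.17 ± 0.05, SE). Tnnt2, the cardiac troponin T, was higher in HDACI at that threshold (0.20 ± 0.06, SE). Of all probe sets 1.93% were lower and 1.61% higher at that threshold. Actc1, the cardiac actin that skeletal muscle makes during development, was chosen after its values were seen. It measured 7.40, 7.52, 7.66 and 7.34 in HDACI arrays, against 8.09, 9.54, 7.46 and 7.47 in vehicle arrays, and so was highest in vehicle replicate 2.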

How the data were processed

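RNA of injured L5 DRG was measured on 8 Affymetrix Rat Gene 1.0 ST arrays, 4 per group, which the study's methods call biological replicates. RMA was run by the authors in the R package oligo (version not given in the sources used here), and the deposited values are on a log2 scale, with nearly the same distribution on every array (medians 8.13 to 8.16). Precision is limited by the number of arrays, there being no read depth. Groups and replicate numbers came from the sample titles, since the treatment field names MS-275 for every sample. Of 28826 probe sets 15209 carried 1 gene symbol, and each of the 39 muscle genes had 1 such probe set. HDACI minus vehicle was fitted in R 4.3.3 using limma 3.58.1 (functions lmFit and eBayes, two-sided, no block or covariate, Benjamini-Hochberg over all probe sets), after the code had been tested on simulated data. The members, the fibre classes and all lists were chosen with earlier results of these data known. All members could be named. Values in all arrays were given for fast and slow genes and for the common members with the largest and smallest range in each role, and of other lists up to 4 genes with the smallest p were named. At most 0.0486% of probe sets held equal values in a pair of arrays.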

Additional observations from a re-analysis of the deposited data

Results flagged for a closer look

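In 5 genes 1 HDACI array lay far from the other 3, by the ratio of its gap to the whole range of the group. Acta1 (9.03), Eno3 (8.52), Pvalb (7.97) and Myot (5.69) were low in HDACI replicate 4, and Des (8.97) was low in HDACI replicate 3. In all, 84 groups of 4 arrays were examined, and chance flags about 1 in 20. No group of vehicle arrays met this limit.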

How the results depend on the processing

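Rescaling the arrays by their medians, by cyclic loess or by quantiles again, robust variances with an intensity trend, and the removal of dim probe sets, which left 36 of the 39 genes, turned no gene's direction and moved no count or median of the muscle genes by over 1.5 times. Fast minus slow in vehicle replicates 1 to 4 was 3.49, 2.02, -0.17 and 1.37 with class means in place of medians, and 3.59, 2.10, -0.14 and 1.17 without Pvalb. The slow value in vehicle replicate 1 was 0.12 as a mean, against 0.057 as a median. Deviations from the group mean had r = -0.041, 0.012, 0.014 and -0.28 over probe sets for same-numbered arrays. Differently numbered pairs ran from -0.30 to 0.34. Since those pairs reached values as large, r cannot show whether same-numbered arrays shared a step of surgery or processing. With the replicate block 39 genes were lower, 33 at an unadjusted p under 0.05 and 5 under 0.01, and no call at the adjusted threshold changed. Over all probe sets the count at an unadjusted p under 0.01 was 160. It was 106 without dim probe sets and 78 among probe sets with 1 symbol, as fewer were tested, and 372 with array weights, for which the cause was not tested. With array weights all 39 genes were lower, 26 at an unadjusted p under 0.05 by limma and 3 under 0.01. The median difference was then -1.18 for all, -1.47 for fast, -0.20 for slow and -1.18 for common genes. Leaving out each array in turn gave 102 to 287 probe sets, 38 to 39 genes lower, 19 to 36 at an unadjusted p under 0.05, 1 to 33 under 0.01 and a median difference of -2.03 to -1.01. For Tnnc1 the difference was -0.15 to 0.014 over these, the last without vehicle replicate 2, and 0.011 when vehicle replicates 1 and 2 were left out, against -0.089 with all arrays. Without vehicle replicates 1 and 2, chosen after seeing the data, 4 genes were below 0.05 and 1 below 0.01, and the median difference was -0.52 for all, -0.56 for fast, -0.060 for slow and -0.53 for common genes. Without vehicle replicates 1, 2 and 4, which left 1 vehicle array assumed to vary like the HDACI arrays, 14 genes were lower, 1 below 0.05 and 1 below 0.01, and the median was 0.086 for all, 0.19 for fast, 0.063 for slow and -0.0096 for common genes. Alternative probe sets could not be tried, since each gene had 1.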

Other observations

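Of the 108 probe sets that ranged over at least 2 (log2) across the 8 arrays, 28 belonged to the 39 fast, slow and common muscle genes, and 71 carried 1 gene symbol. Among the others with a symbol were 3 genes known from muscle, on none of the lists and chosen after their values were seen. Their highest values lay in vehicle replicates 1 and 2. Pdlim3, a Z disc protein, measured 6.79, 6.84, 6.85 and 6.69 in HDACI arrays, against 8.34, 9.15, 6.84 and 7.09 in vehicle arrays, and so was highest in vehicle replicate 2. Apobec2, a muscle protein of the deaminase family, measured 7.20, 7.27, 7.495 and 7.28 in HDACI arrays, against 9.29, 7.89, 7.15 and 7.65 in vehicle arrays, with vehicle replicate 1 highest. Ankrd23, an ankyrin repeat protein that binds titin, measured 7.77, 7.70, 7.89 and 7.56 in HDACI arrays, against 9.58, 9.76, 7.73 and 8.23 in vehicle arrays, with vehicle replicates 1 and 2 nearly level. Sln, the calcium pump inhibitor sarcolipin, is on the list of further muscle genes and was picked once its values were known. It measured 8.11, 8.14, 8.24 and 7.99 in HDACI arrays, against 8.74, 10.35, 8.14 and 8.22 in vehicle arrays. It stood 1.61 higher in vehicle replicate 2 than in vehicle replicate 1 (log2).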
